A study of Mus musculus with 6 samples.

Results

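Macrophages take up haemoglobin, break down its haem and store, reuse or release the iron, and 10 genes of that route were followed in mouse bone marrow-derived macrophages kept for 24 h in tumour-cell conditioned medium. The genes were chosen by name for their roles, with earlier results of these data known. They were matched by symbol among the 55421 genes of the deposited count table. They are Cd163, Hmox1, Blvrb, Fth1, Ftl1, Slc40a1, Tfrc, Slc11a1, Slc11a2 and Ireb2, and all 10 were present and passed the filter on low counts. The series holds 6 samples of wild-type (labelled WT) primary cells. Conditioned-medium samples (n = 3) were given LL-2 medium mixed with RPMI-1640 at equal volumes, that is 50% conditioned medium. Untreated samples (n = 3) were kept in RPMI-1640. Per the labels' protocols, the medium held M-CSF at 20 ng/mL, the growth factor that drives bone marrow cells to become macrophages, with 10% fetal bovine serum and antibiotics at 1%, and red blood cells were lysed when the marrow was collected. LL-2 is a Lewis lung carcinoma line. The sources used here do not give the strain, sex or age of the mice, nor whether the samples are of different animals. The p-values therefore cover the variation among these samples alone, which may be technical. No medium conditioned by other cells was analysed here, and mixing also diluted the fresh medium, so tumour-cell products and conditioning or dilution cannot be told apart.

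The route works as follows. Cd163 on the macrophage surface takes up haemoglobin. Haem oxygenase 1 (Hmox1) opens the haem ring, which frees iron and gives biliverdin, a pigment that biliverdin reductase (Blvra) reduces further. Blvrb is another reductase of haem breakdown products. Free iron is stored in ferritin, a shell of heavy (Fth1) and light (Ftl1) chains, or leaves the cell through ferroportin (Slc40a1), the known cellular iron exporter. Iron bound to transferrin enters through the transferrin receptor (Tfrc), and the related transporters Slc11a1 (NRAMP1) and Slc11a2 (DMT1) carry it across phagosomal and endosomal membranes. Iron regulatory protein 2 (Ireb2), like its relative Aco1, binds hairpins in messenger RNAs when cell iron is low.

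Libraries held 28447825 to 30040682 counts in conditioned medium and 24179548 to 25916709 counts in untreated samples. Defining macrophage markers (Adgre1, Csf1r, Cd68, Fcgr1, Mertk, Lyz2 and Itgam) were present in every library, with a summed level of 56691 to 61271 CPM in conditioned medium and 50530 to 59722 CPM in untreated samples. Most of that sum was Lyz2, at 49293 CPM in conditioned medium and 45410 CPM in untreated samples, which was not called (adjusted p = 0.277). Of the other 6, Csf1r, Mertk and Itgam rose, and Adgre1, Cd68 and Fcgr1 fell. CPM is the usual count scaled to a common library size, here after TMM scaling, which corrects for differences in library composition. Of 9 erythroid markers found in the table, 3 (Hbb-bs, Hbb-bt and Slc4a1) had no count in any library, and the summed level of the list was 2.10 to 2.82 CPM in conditioned medium and 1.92 to 2.76 CPM in untreated samples. Epor made up most of the erythroid sum, with a mean of 1.97 CPM in conditioned medium and 1.92 CPM in untreated samples. The summed level of 4 epithelial markers was 0.585 to 1.12 CPM in conditioned medium and 0.794 to 1.20 CPM in untreated samples. Cdh1 made up most of the epithelial sum, with a mean of 0.851 CPM in conditioned medium and 1.01 CPM in untreated samples. All 5 tested mast cell and basophil markers were lower in conditioned medium, with a summed level of 4.78 to 9.10 CPM, against 13.5 to 16.5 CPM in untreated samples. Of 5 tested dendritic cell markers 3 were lower, with a summed level of 8.98 to 14.6 CPM in conditioned medium and 18.96 to 27.003 CPM in untreated samples (4 of 5 lower with the replicate number as a block). Of 3 tested lymphoid markers 1 was lower (Ms4a1), and the list summed to 1.96 to 2.39 CPM in conditioned medium and 3.14 to 3.29 CPM in untreated samples. The part of these cells in the results was not tested.

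Of the 10 genes, 3 rose in conditioned medium (Cd163, Hmox1 and Slc40a1), 4 fell (Fth1, Ftl1, Slc11a1 and Slc11a2) and 3 did not pass the test (Blvrb, Tfrc and Ireb2). The test was edgeR's quasi-likelihood test with Benjamini-Hochberg adjustment over 13853 tested genes and a threshold of 0.05. By the same test 12.6% of all tested genes rose and 15.2% fell, so 27.9% were called in either direction. These shares are also the background for the counts of called marker and list genes given elsewhere. Without scaling beyond the total count, 2656 of all genes were higher and 1710 lower, against 1749 and 2112 with TMM scaling. Leaving out untreated replicate 2 brought the higher genes to 1146, and leaving out conditioned-medium replicate 1 to 1160. The median log2 fold change, conditioned medium over untreated, was -0.0057 over the 10 genes and 0.013 over all tested genes. With the replicate number as a block the same 3 genes rose and the same 4 fell, against 17% and 19.3% of all tested genes (36.3% together). Of the 10 genes, Cd163 alone was called beyond 1.5-fold by edgeR's glmTreat, where 1.24% of all tested genes were called higher and 2.25% lower (3.49% together). In bulk RNA, fewer cells of a kind and less RNA per cell cannot be told apart.

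**Figure D1:**
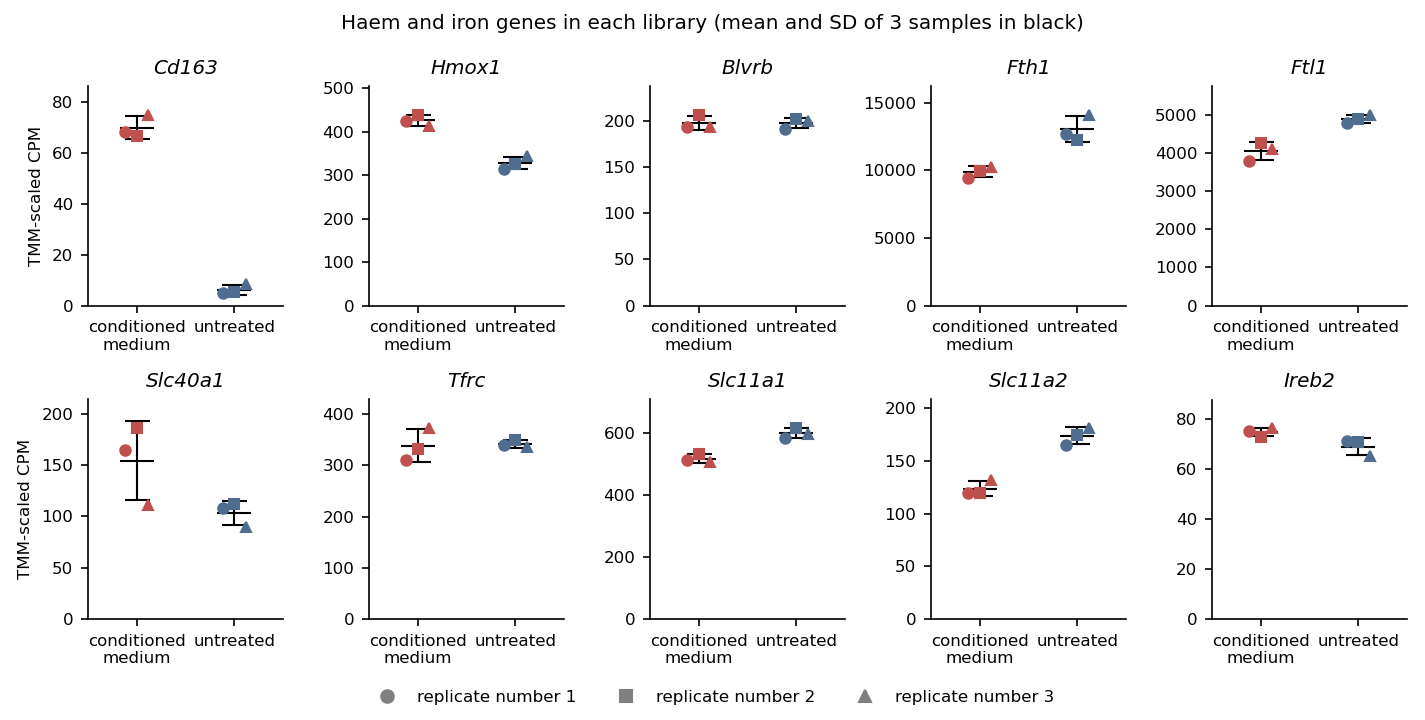
Level of each of the 10 genes in every library as TMM-scaled CPM (linear axes from 0), with conditioned-medium samples in red, untreated samples in blue, a symbol for each replicate number, and the mean and SD of 3 samples in black. Cd163 lies at 66.7 to 75.1 CPM in conditioned medium and at 4.77 to 8.54 CPM in untreated samples, while the Blvrb and Tfrc groups overlap.

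Cd163, the haemoglobin receptor (ENSMUSG00000008845, GRCm38 chromosome 6, 124304656 to 124330527, plus strand), had 68.2, 66.7 and 75.1 CPM in conditioned-medium samples 1, 2 and 3, against 4.77, 5.16 and 8.54 CPM in untreated samples 1, 2 and 3. The groups were far apart, and the untreated sample numbered 3 was the highest of its group. In raw counts these were 2080, 2030 and 2181 against 114, 125 and 213, so even the lowest library rests on more than 100 counts. The fold was 11.3 (95% interval 8.80 to 14.6, log2 fold change 3.50, SE 0.16, adjusted p = 1.10e-06, and 4.91e-06 for a change beyond 1.5-fold). By size of change Cd163 stood at place 8 of all 13853 tested genes, and at place 6 among rises. Between samples of the same number the log2 ratio was 3.84, 3.69 and 3.14. Leaving out each library in turn gave log2 fold changes of 3.35 to 3.82.

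Haptoglobin (Hp), which binds free haemoglobin, was also higher, at 112 ± 15.8 CPM in conditioned medium and 63.7 ± 21.4 CPM in untreated samples (SD, n = 3 each, fold 1.76, adjusted p = 0.0125). Hp is also stored in neutrophil granules. Of 9 neutrophil markers, 2 rose (Mmp8 and Retnlg) and 1 fell (Camp), while with the replicate number as a block 6 rose (also S100a8, S100a9, Elane and Mpo) and 2 fell (also Ngp). Their summed level was 531 to 612 CPM in conditioned medium and 386 to 555 CPM in untreated samples. The part of neutrophil transcripts in the Hp result was not tested. Lrp1, a large endocytic receptor that takes up haem bound to haemopexin, went the other way, at 1574 ± 58.8 CPM in conditioned medium and 2463 ± 127 CPM in untreated samples (fold 0.639, adjusted p = 3.16e-05). The haem exporter gene Flvcr1 fell to 48.3 ± 2.02 CPM in conditioned medium, against 71.6 ± 6.26 CPM in untreated samples (adjusted p = 0.000265). Slc48a1, which moves haem out of the phagolysosome and shares 29 exonic bases with Hdac7 on the other strand, was at 296 ± 7.36 CPM in conditioned medium and 323 ± 7.29 CPM in untreated samples and missed the threshold (adjusted p = 0.0506, and 0.0219 with the replicate number as a block). Of the 9 genes for haem uptake and transport other than Cd163, 6 were tested, 1 rose, 2 fell and 3 did not pass. With the replicate number as a block 1 rose and 3 fell. Haemopexin itself (Hpx) was too low to test, at 0.0667 CPM in conditioned medium and 0.191 CPM in untreated samples.

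Hmox1, the inducible haem oxygenase gene (ENSMUSG00000005413, chromosome 8, 75093621 to 75100589, plus strand), had 426, 439 and 413 CPM in conditioned-medium samples and 315, 327 and 344 CPM in untreated samples. Every conditioned-medium sample lay above every untreated sample. The rise was 1.30-fold (95% interval 1.20 to 1.40, log2 fold change 0.37, SE 0.05, adjusted p = 0.000407). It was smallest between the samples numbered 3, with a log2 ratio of 0.27, against 0.43 in each of the other pairs. Blvrb, a reductase of haem breakdown products (ENSMUSG00000040466, chromosome 7, 27447978 to 27466144, plus strand), had 194, 207 and 194 CPM in conditioned medium and 192, 202 and 199.95 CPM in untreated samples. These groups overlapped, and the fold was 1.00 with a 95% interval of 0.933 to 1.08 (adjusted p = 0.970). Within each library the ratio of Hmox1 to Blvrb counts was 2.199, 2.12 and 2.13 in conditioned medium and 1.65, 1.62 and 1.72 in untreated samples. This ratio does not depend on library scaling. A two-sided exact permutation test gave p = 0.1, the smallest value that 3 samples against 3 allow, and 0.167 after adjustment over the 5 ratios computed.

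The constitutive haem oxygenase gene Hmox2, which shares exonic bases with Cdip1 on the other strand, was at 127 ± 4.97 CPM in conditioned medium and 146 ± 8.62 CPM in untreated samples (adjusted p = 0.0207). The biliverdin reductase gene Blvra did not pass (adjusted p = 0.299). Of 8 tested haem synthesis genes, 2 fell and 6 did not pass (2 rose and 2 fell with the replicate number as a block). Of all tested genes 27.9% were called, and 36.3% with the block. Alas1, the rate-limiting enzyme of haem synthesis outside red blood cells, fell to 111 ± 7.35 CPM in conditioned medium, against 163 ± 4.27 CPM in untreated samples (log2 fold change -0.55, adjusted p = 8.36e-05).

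Ferritin, ferroportin and transferrin receptor messages carry the hairpin that iron regulatory proteins bind, the iron-responsive element. When cell iron is low, binding near the start of ferritin and ferroportin messages blocks their translation, and binding near the end of the transferrin receptor message protects it from decay. The elements are shown because iron can change the protein made from Fth1, Ftl1 and Slc40a1 messages without a change in the counts measured here, while for Tfrc it can change the counts. Untranslated regions of GENCODE release M21 transcripts (GRCm38) were searched for C, 5 bases and CAGTGN, flanked by bases that pair: all 5 pairs of the upper stem and at least 3 of 5 in the lower stem, G-T pairs allowed, on the transcript's strand. Capitals mark the bulged C and the 6-base loop, and letters are those of the DNA strand that matches the messenger RNA.
Fth1 5′ UTR, chr19:9982733-9982759, plus strand: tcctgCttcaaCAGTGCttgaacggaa
Ftl1 5′ UTR, chr7:45459780-45459806, minus strand: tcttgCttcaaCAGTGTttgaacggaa
Slc40a1 5′ UTR, chr1:45925466-45925492, minus strand: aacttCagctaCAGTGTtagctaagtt
Tfrc 3′ UTR, chr16:32631220-32631246, plus strand: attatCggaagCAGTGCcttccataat
Tfrc 3′ UTR, chr16:32631599-32631625, plus strand: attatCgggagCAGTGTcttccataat
Tfrc 3′ UTR, chr16:32631664-32631690, plus strand: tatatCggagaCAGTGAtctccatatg
Tfrc 3′ UTR, chr16:32631711-32631737, plus strand: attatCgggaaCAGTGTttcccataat

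The same search matched a 5′ UTR in 9 of 21877 protein-coding genes (0.0411%) and a 3′ UTR in 36 (0.165%). Of the 10 genes, 3 had a 5′ match and 1 had a 3′ match, and no match says only that this pattern is not in the annotated UTRs. Genes with a 5′ match moved in both directions: of the 7 tested, 1 rose (Slc40a1) and 4 fell, among them Fth1 and Ftl1. Of the 28 tested genes with a 3′ match, 5 rose and 4 fell. With the replicate number as a block Lrpap1 also fell (adjusted p = 0.0475, against 0.0758 in the main fit). By the same test 27.9% of all tested genes were called in either direction. Ftl1-ps1, annotated as protein coding but named as a pseudogene of Ftl1, also had the 5′ match and fell with a log2 fold change of -0.29 (adjusted p = 0.00366). Its fall may not be independent of that of Ftl1. Tfrc, with 4 elements in its 3′ UTR, was not called in either direction.

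Fth1, the ferritin heavy chain that oxidises iron for storage (ENSMUSG00000024661, chromosome 19, 9980598 to 9985098, plus strand), had 9450, 9986 and 10292 CPM in conditioned-medium samples and 12724, 12285 and 14134 CPM in untreated samples. Each conditioned-medium sample was below each untreated sample. The fold was 0.759 (95% interval 0.687 to 0.839, log2 fold change -0.40, SE 0.06, adjusted p = 0.00156). Ftl1, the light chain that helps form the iron core (ENSMUSG00000050708, chromosome 7, 45457944 to 45459884, minus strand), had 3794, 4267 and 4096 CPM in conditioned medium and 4784, 4904 and 5010 CPM in untreated samples. Its groups did not overlap either, and the fold was 0.827 (95% interval 0.760 to 0.900, log2 fold change -0.27, SE 0.05, adjusted p = 0.00485). Both chains were lower in every pair of the same number. Fth1 made up 1.01% of all counts in conditioned medium and 1.28% in untreated samples.

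The Fth1 to Ftl1 count ratio was 2.49, 2.34 and 2.51 in conditioned medium and 2.66, 2.51 and 2.82 in untreated samples, where the groups overlapped (two-sided exact permutation p = 0.2, 0.25 after adjustment over the 5 ratios). This ratio was lower in conditioned medium in all 3 pairs of the same number, for which an exact paired test cannot go below 0.25. Genes and pseudogenes with names like those of the ferritin genes, called copies here, were picked by name, and their sequences were not compared. How reads that map to several places were handled is not given in the sources used here. The counts of both ferritin genes are uncertain to that extent. The listed copies of Ftl1 held few counts beside it, with 8076 over all libraries for Ftl1-ps1, and adding them to the parent gene left the log2 fold changes at -0.27 and -0.40. Ncoa4, the receptor that delivers ferritin to lysosomes for iron release, fell with them, at 305 ± 27.3 CPM in conditioned medium and 373 ± 10.4 CPM in untreated samples (adjusted p = 0.00841). The iron chaperone genes Pcbp1 and Pcbp2 did not pass (adjusted p = 0.745 and 0.110), though Pcbp2 did with the replicate number as a block (0.0345). Ftl1 shares 355 exonic bases with Gm10252 on the other strand, which held 87 counts in all.

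Slc40a1, encoding ferroportin (ENSMUSG00000025993, chromosome 1, 45908068 to 45926523, minus strand), had 165, 186 and 111 CPM in conditioned-medium samples and 109, 112 and 89.6 CPM in untreated samples. The third conditioned-medium sample, at 111.46 CPM, lay just under the highest untreated one, at 111.65 CPM, so the groups overlapped, and the sample numbered 3 was the lowest of each group. The fold was 1.49 (95% interval 1.16 to 1.93, log2 fold change 0.58, SE 0.16, adjusted p = 0.0267). Between samples of the same number the log2 ratio was 0.60, 0.74 and 0.31, above 0 in all 3 pairs, and with the replicate number as a block the adjusted p was 3.05e-06. Without the block the call was lost with DESeq2 (adjusted p = 0.0507) and by leaving out conditioned-medium replicate 1 (0.0984), conditioned-medium replicate 2 (0.0986), or untreated replicate 1, 2 or 3 (0.0589, 0.0559 and 0.0793). It held without conditioned-medium replicate 3 (log2 fold change 0.76, adjusted p = 0.000328) and without both libraries numbered 3 (0.67, adjusted p = 8.00e-06). Ceruloplasmin (Cp), a ferroxidase that works beside ferroportin, did not pass (adjusted p = 0.397) and shares exonic bases with Hps3. The other genes of the export list, Heph and Hamp, were too low to test.

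**Figure D2:**
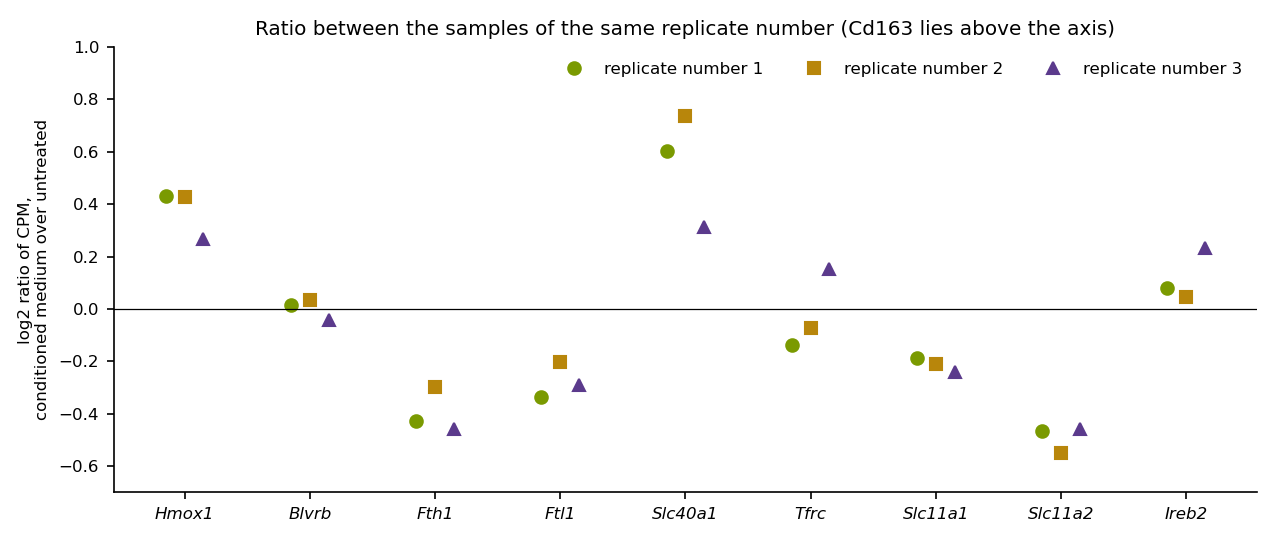
Log2 ratio of TMM-scaled CPM, conditioned medium over untreated, between the samples that carry the same replicate number, for 9 of the 10 genes (Cd163, at 3.14 to 3.84, is outside the axis). Slc40a1 runs from 0.31 in the samples numbered 3 to 0.74 in those numbered 2, and Tfrc lies above 0 only in the samples numbered 3.

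Tfrc, the transferrin receptor gene (ENSMUSG00000022797, chromosome 16, 32608920 to 32632794, plus strand), had 309, 333 and 372 CPM in conditioned-medium samples and 340, 349 and 335 CPM in untreated samples. The conditioned-medium samples spread on both sides of the untreated ones, with the sample numbered 3 the highest. The fold was 0.990 with a 95% interval of 0.895 to 1.10 (adjusted p = 0.894). The Fth1 to Tfrc count ratio was 30.5, 30.02 and 27.6 in conditioned medium and 37.4, 35.2 and 42.2 in untreated samples. These groups did not overlap (two-sided exact permutation p = 0.1, the smallest possible, and 0.167 after adjustment over the 5 ratios). The Slc40a1 to Tfrc ratio was 0.533, 0.559 and 0.299 in conditioned medium and 0.319, 0.320 and 0.268 in untreated samples, with overlap (exact permutation p = 0.3), and was higher in conditioned medium in all 3 pairs.

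Both NRAMP-family transporter genes were lower. Slc11a1, found on phagosomes and known for its part in resistance to intracellular microbes (ENSMUSG00000026177, chromosome 1, 74375195 to 74386062, plus strand), had 513, 534 and 507 CPM in conditioned-medium samples and 585, 617 and 599 CPM in untreated samples. The fold was 0.863 (95% interval 0.806 to 0.924, log2 fold change -0.21, SE 0.04, adjusted p = 0.00580). Slc11a2, which carries iron out of endosomes (ENSMUSG00000023030, chromosome 15, 100387898 to 100425072, minus strand), had 119.8, 119.6 and 132 CPM in conditioned medium and 165, 175 and 181 CPM in untreated samples. Its fold was 0.712 (95% interval 0.653 to 0.776, log2 fold change -0.49, SE 0.05, adjusted p = 0.000195). Neither gene's groups overlapped. The Slc11a1 to Slc11a2 count ratio was 4.29, 4.46 and 3.84 in conditioned medium and 3.54, 3.53 and 3.30 in untreated samples (two-sided exact permutation p = 0.1, the smallest possible, and 0.167 after adjustment). Slc11a2 is made in forms with and without an iron-responsive element, which counts per gene do not separate. It shares 402 exonic bases with Gm5475 on the other strand, which held 67 counts in all.

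Other import genes moved in both directions. Trf, encoding transferrin, the iron carrier of blood, was at 1066 ± 188 CPM in conditioned medium and 481 ± 51.6 CPM in untreated samples (fold 2.22, log2 fold change 1.149, SE 0.12, adjusted p = 0.000164). Steap4, a metalloreductase gene, was scarce but rose, at 4.12 ± 1.20 CPM in conditioned medium and 0.456 ± 0.440 CPM in untreated samples (log2 fold change 3.18, SE 0.48, adjusted p = 0.00114). Its relative Steap3, which reduces iron in endosomes so that Slc11a2 can carry it, fell to 37.4 ± 0.990 CPM in conditioned medium, against 58.6 ± 2.13 CPM in untreated samples (fold 0.637, adjusted p = 1.81e-05). Lactoferrin (Ltf), an iron-binding protein of neutrophil granules, fell with a log2 fold change of -0.69 (adjusted p = 0.0190). Lipocalin 2 (Lcn2), which binds bacterial iron carriers, was at 62.7 ± 8.03 CPM in conditioned medium and 47.8 ± 9.49 CPM in untreated samples and missed the threshold (adjusted p = 0.0636, and 0.00267 with the replicate number as a block). Both are also granule genes of neutrophils, whose marker levels are given beside Hp, and the part of those cells was not tested. Of 13 import and reduction genes other than the 3 already described, 9 were tested, 2 rose, 3 fell and 4 did not pass. With the replicate number as a block 3 rose and 3 fell.

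Ireb2, encoding iron regulatory protein 2 (ENSMUSG00000032293, chromosome 9, 54863789 to 54912530, plus strand), had 75.4, 73.1 and 76.5 CPM in conditioned-medium samples and 71.3, 70.8 and 65.2 CPM in untreated samples. The groups did not overlap, but the fold of 1.09 (95% interval 1.01 to 1.17) did not pass after adjustment (adjusted p = 0.104). In all, 7 of the 10 genes had groups that did not overlap, with 3 higher and 4 lower in conditioned medium, against 42.8% of all tested genes (21.2% higher and 21.6% lower). Fbxl5, the iron-sensing ligase subunit that marks iron regulatory protein 2 for destruction, rose to 73.2 ± 3.51 CPM in conditioned medium, against 46.5 ± 1.64 CPM in untreated samples (fold 1.58, log2 fold change 0.66, SE 0.05, adjusted p = 2.57e-05). Its exons share 98 bases with Bst1 on the other strand. Hfe, whose product binds the transferrin receptor and is known from hereditary iron overload, rose to 202 ± 8.10 CPM, against 117 ± 7.70 CPM in untreated samples (fold 1.72, adjusted p = 1.50e-05). Aco1, encoding iron regulatory protein 1, did not pass (adjusted p = 0.245). Of the 8 sensing genes other than Ireb2, 5 were tested, 2 rose and 3 did not pass.

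**Figure D3:**
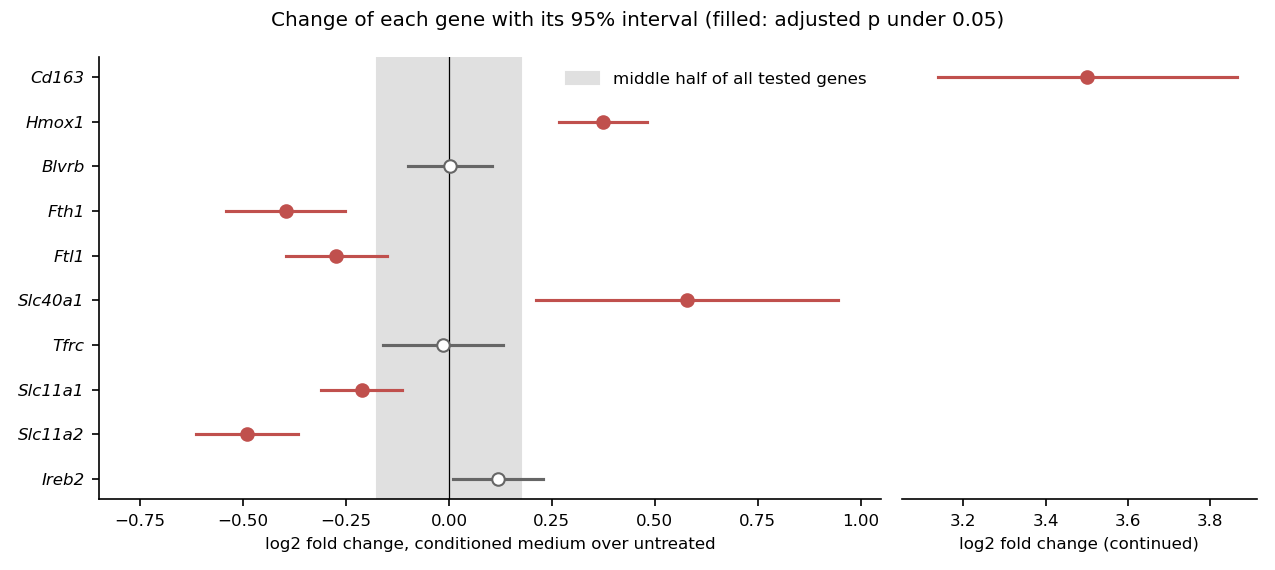
Log2 fold change of each gene, conditioned medium over untreated, with its 95% interval from edgeR's quasi-likelihood fit; filled points passed the adjusted threshold, and the grey band is the interquartile range of all tested genes. The axis is broken to reach Cd163 at 3.50, and both panels have the same scale; the intervals of Blvrb and Tfrc span 0.

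To compare levels between genes, CPM was divided by the summed exon length in the deposited table. The ferritin chains were the most abundant of the 10 on this scale, with Ftl1 at 3024 ± 179 and Fth1 at 2856 ± 123 CPM per kilobase in conditioned medium, against 3656 ± 84.3 for Ftl1 and 3761 ± 278 for Fth1 in untreated samples. The chains overlapped each other in both groups. Summed exon length covers every annotated transcript, which understates genes with long rare forms, such as Fth1 (3469 bases). Next in order came Hmox1 (243 ± 7.52 in conditioned medium and 188 ± 8.09 in untreated samples), Slc11a1 (140 ± 3.81 in conditioned medium and 162 ± 4.39 in untreated samples), Blvrb (71.3 ± 2.77 in conditioned medium and 71.1 ± 1.99 in untreated samples) and Tfrc (54.7 ± 5.16 in conditioned medium and 55.2 ± 1.20 in untreated samples), and these 4 genes did not overlap one another in either group. Slc11a2 followed at 19.5 ± 1.11 in conditioned medium and 27.4 ± 1.27 in untreated samples, and Slc40a1 at 17.1 ± 4.27 in conditioned medium and 11.5 ± 1.33 in untreated samples, and these genes overlapped each other in conditioned medium but not in untreated samples. Cd163 stood at 12.8 ± 0.820 CPM per kilobase in conditioned medium, overlapping Slc40a1 and above Ireb2 (7.91 ± 0.181). In untreated samples Cd163 was the lowest of the 10, at 1.13 ± 0.380, below Ireb2 at 7.29 ± 0.359.

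The 12 genes listed as transcription factors known to control these genes moved in both directions. Of these, 4 were higher, 3 lower and 5 not called (6 higher and 4 lower with the replicate number as a block). Among the 3 lower is Keap1, which is not a transcription factor (log2 fold change -0.34, adjusted p = 0.00640). By the same test 27.9% of all tested genes were called, and 36.3% with the block. Hif1a, encoding the oxygen-sensitive subunit of hypoxia-inducible factor, was at 261 ± 12.3 CPM in conditioned medium and 101 ± 4.45 CPM in untreated samples (fold 2.58, adjusted p = 4.57e-07), and the antisense gene Gm15283 that shares its exonic bases held 127 counts in all. Spic, which is required for iron-recycling macrophages of the spleen and is itself induced by haem, rose to 9.01 ± 1.497 CPM, against 5.89 ± 0.628 CPM in untreated samples (fold 1.53, adjusted p = 0.0121). Nr1h3, encoding the oxysterol receptor LXR alpha, fell to 36.3 ± 8.19 CPM, against 95.6 ± 20.7 CPM in untreated samples (log2 fold change -1.39, adjusted p = 0.000468). Bach1, the haem-binding repressor of Hmox1, and Nfe2l2, encoding the activator Nrf2, did not pass (adjusted p = 0.0627 for Bach1 and 0.641 for Nfe2l2), while Bach1 did with the replicate number as a block (0.0380).

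Nrf2 is known to activate Hmox1, Blvrb, both ferritin chains and Slc40a1. Of these Hmox1 and Slc40a1 rose, the ferritin chains fell and Blvrb did not pass. Of 12 other Nrf2 targets, 1 rose, 4 fell and 7 did not pass (3 higher and 4 lower with the replicate number as a block). The cystine importer gene Slc7a11 fell to 18.5 ± 2.45 CPM in conditioned medium, against 34.3 ± 2.92 CPM in untreated samples (log2 fold change -0.89, adjusted p = 0.000186). Srxn1, encoding sulfiredoxin, fell with a log2 fold change of -0.31, and Gsr, encoding glutathione reductase, rose with one of 0.57. Of 14 iron-sulfur cluster and mitochondrial iron genes, 12 did not pass, where 27.9% of all tested genes were called. Slc25a37, the mitochondrial iron importer mitoferrin 1, rose to 75.7 ± 5.89 CPM, against 52.7 ± 0.838 CPM in untreated samples (adjusted p = 0.000220), and Bola3 fell (log2 fold change -0.42, adjusted p = 0.03995). Among 6 tested genes that control ferroptosis, the iron-dependent form of cell death, Gch1 fell (log2 fold change -0.76) and Alox5 rose (0.64), and 4 did not pass, among them Gpx4 (adjusted p = 0.557). Over all lists, 78 other genes were tested and 12 rose, 18 fell and 48 did not pass (20 rose and 20 fell with the replicate number as a block), with a median log2 fold change of -0.0056. Of all tested genes 27.9% were called, and 36.3% with the block.

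**Figure D4:**
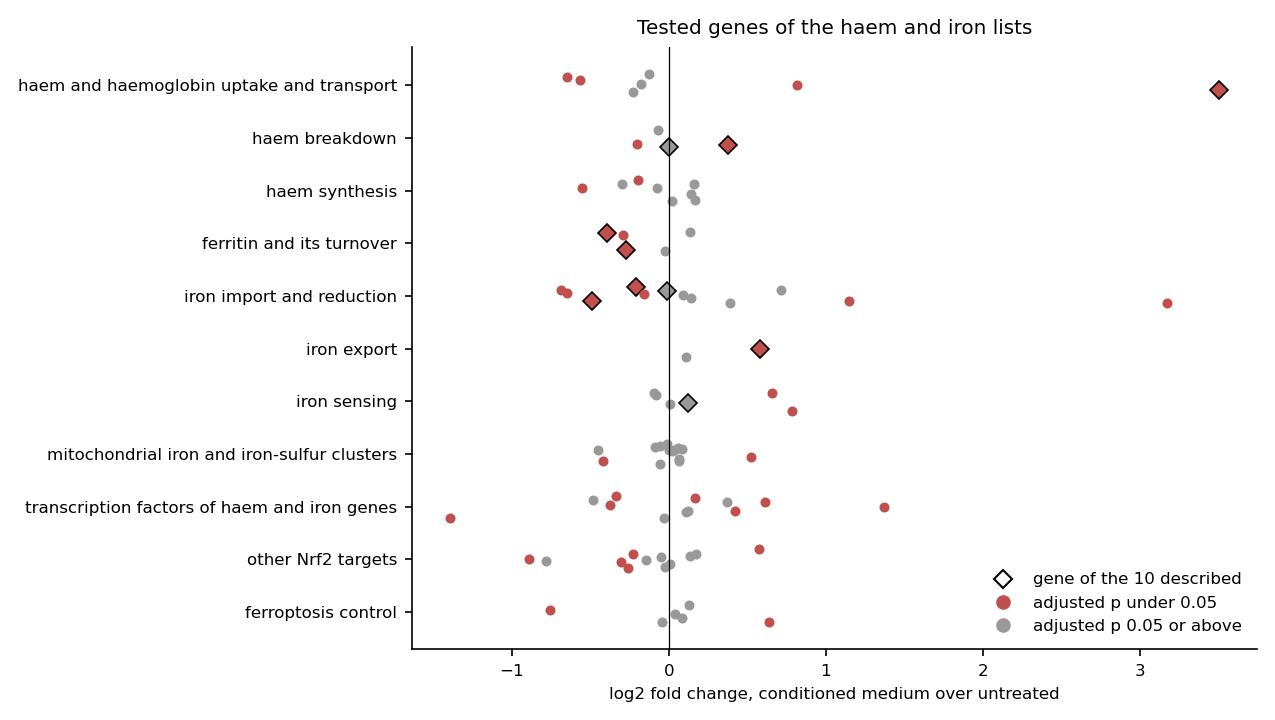
Log2 fold change, conditioned medium over untreated, of every tested gene of the haem and iron lists, 1 row per list; diamonds are the 10 genes described, red points passed the adjusted threshold and the vertical jitter has no meaning. Cd163 at 3.50 and Steap4 at 3.18 lie furthest to the right, and Nr1h3 at -1.39 furthest to the left.

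The genes whose pattern over the 6 libraries was most like that of each gene were found by the Euclidean distance between centred log2 CPM profiles, among 9553 other genes with a mean of at least 5 CPM. The distance is in log2 units and rests largely on the size of the difference between the groups. The nearest to Cd163 were Thbs1, Vcan and F13a1, at distances of 0.873, 0.905 and 0.936. Slc40a1, with its low samples numbered 3, was nearest to Ptgs1, Cela1 and Stab2 (0.244, 0.270 and 0.279). Hmox1 was nearest to Prune2, Sqor and Frmd4b (0.0540 to 0.0677), Fth1 to Car13, Cpne2 and Pgap2 (0.0469 to 0.0823), and Ftl1 to Atp6v0e, Acot9 and Rex1bd (0.0302 to 0.0620). Slc11a2 was nearest to Slc44a2, Fbrsl1 and Eml2 (0.0529 to 0.0756), and Slc11a1 to Yipf6, Tmx1 and Rap1b (0.0350 to 0.0404). For the genes not called, the nearest were Tysnd1, Cep350 and Cep170 for Tfrc, Ubr7, Hsbp1 and Smarca5 for Blvrb, and Aldh4a1, Mllt10 and Ppie for Ireb2, at distances of 0.0274 to 0.0865.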

How the data were processed

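Messenger RNA, enriched per the labels' protocols with oligo(dT) beads, was sequenced in 3 conditioned-medium and 3 untreated samples. The authors deposited 1 table of raw counts for each gene. HISAT2, featureCounts and the build GRCm38 are named in the submitters' processing notes, without versions, and the sources used here do not give the strand setting or annotation release. Summed exon length (another value, in bases) is as deposited by the authors. Symbols came from GENCODE release M21, matched for 55154 of 55421 identifiers. Groups follow the treatment labels.

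Genes were kept by filterByExpr, scaled by TMM and tested with edgeR 4.0.16 (limma 3.58.1, R 4.3.3), with the group alone in the design. SE were derived from the F statistic. DESeq2 1.42.0 and limma-voom were alternatives, with RLE scaling, no scaling, other filters, left-out libraries and thinned counts. The scripts were tested on simulated data. Libraries of a group differed by more than sampling noise.

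Samples of the same replicate number deviated together from their group means (correlation over 13853 genes 0.402, 0.233 and 0.446, by the log2 of CPM plus 1). Between samples of different number the correlation was -0.397 to 0.101. A second fit therefore took the numbers to pair the samples, though no label says what they stand for. The main p-values, intervals and exact permutation tests leave this pairing out. The second fit, with the number as a block, is given beside the genes and lists whose calls it changes. A gene with 0 counts has an upper limit of 3 counts, 0.0999 to 0.124 CPM, which covers counting error only.

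The 10 genes and the pathway lists were chosen with earlier results of these data known. Beside the 10, the text names up to 3 genes per list with the largest change past the threshold, the gene with the smallest p where none passed, and the 3 genes most like each. Other genes named beside these were chosen after their values were seen. A gene that this rule would name is not reported here.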

Additional observations from a re-analysis of the deposited data

How the results depend on the processing

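The 4 falls (Fth1, Ftl1, Slc11a1 and Slc11a2) and the rises of Cd163 and Hmox1 kept their direction and their call under each of the 15 alternatives run, and Fth1 and Ftl1 also when summed with their copies. The count of genes of the 10 that rose was 2 to 4, because the Slc40a1 call was lost in 6 alternatives (log2 fold change 0.41 to 0.76 when 1 library was left out) and Ireb2 was gained without scaling (0.18, adjusted p = 0.0350). Blvrb, not called, changed sign with DESeq2 (-0.0027) and RLE scaling (-0.0027) and ranged from -0.036 to 0.018 when 1 library was left out. Tfrc, not called, changed sign without the low-count filter (0.0029) and without scaling (0.043) and ranged from -0.092 to 0.044 when 1 library was left out. Over all genes, 2656 were higher without scaling, where the median log2 fold change moved to 0.070, and leaving out 1 library gave 1146 to 1653. With the replicate block 5023 genes were called, against 3861, and it changed the call of none of the 10 genes; among other genes named, it changed those printed beside them. The block left the glmTreat count of the 10 at 1. Hpx, Heph and Hamp were too low to test in the main fit.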
